A study of Papio anubis with 588 samples.

Results

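Liver biopsies of captive baboons (Papio anubis) were compared within animals between a low cholesterol, low fat diet (LCLF, taken at time 0) and 2 years of a high cholesterol, high fat diet (HCHF). The comparison used every animal with both liver libraries in the count table that had passed the authors' quality control, which gave 84 animals and 168 libraries of 182 liver libraries and of 570 libraries of liver, muscle and adipose tissue in all. Each animal entered with its own LCLF library as control. The animals differed in no labelled genotype or agent, and the labels used here give neither their age nor their sex. Animals kept on the LCLF diet for the whole time were not analysed here, so the effects of diet, of 2 years of age and of calendar time cannot be told apart. RNA was total RNA from frozen tissue, so each value is an average over all cell types of the biopsy, and fewer cells of a type and less RNA per cell cannot be told apart.

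The liver parenchyma consists mostly of hepatocytes, which make glucose, detoxify ammonia as urea, burn and export fat, modify foreign compounds and secrete most plasma proteins. The remaining cells include macrophages (Kupffer cells), fenestrated endothelium of the sinusoids, stellate cells that store retinoid and make matrix, bile duct cells and lymphocytes. Fat and cholesterol loading of primate liver is known to draw in lipid-laden macrophages, and hepatocyte gene programmes depend on a small set of transcription factors such as HNF4A.

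LCLF libraries held 6594120 to 32698163 counts (median 19493332) and HCHF libraries 8164507 to 38456575 (median 20924008). Hepatocyte markers took a median of 21.8% of counts in LCLF and 21.1% in HCHF libraries, so the labelled tissue was liver in each kept library, though the HCHF library of animal 12152 had only 5.09%. That library stood apart in single genes. Levels are given in CPM, counts scaled to library size. IGFBP1, which binds insulin-like growth factors, was at 46670 CPM there and at most 2812 in the other HCHF libraries, and the bile acid importer SLC10A1 was at 6.51 CPM there and at least 200.8 in the others. It was 1 of 7 animals set aside in an alternative for low hepatocyte or high adipocyte, myocyte or mesothelium marker shares, together with 16017, 16363, 16413, 16499, 16748 and 18024.

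The libraries of animal 14833 went against their labels. Of the 15 largest rises named below, only 1 was higher in its HCHF library, where the other 83 animals had at least 8 higher (median 15) and 55 of them had all 15. In that animal the labelled LCLF library held 8.13 CPM of UCHL1 and 15.4 CPM of CHIT1, and the labelled HCHF library held 0.194 CPM of each. SDS went from 62.7 to 465.1 CPM in it, which is opposite to most animals. Its libraries stay in the values below under their labels, and for UCHL1, CHIT1 and GPNMB, where it gave the highest LCLF value by more than 1.5 times, the next highest is also given. Without it 3398 genes were higher and 3937 lower. All 175 genes named as changed kept their call without it, and also without the 7 animals set aside.

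The first question was how far the liver transcriptome differed after the HCHF diet. Of 14919 genes tested, 3324 rose (22.3%) and 4042 fell (27.1%), but large changes were mostly rises. By at least 0.5 on the log2 scale 1297 genes rose (8.69%) and 122 fell (0.818%). The median change over all genes tested was -0.03 on the log2 scale. A gene was called when edgeR's quasi-likelihood test, blocked on animal, gave a Benjamini-Hochberg adjusted p under 0.05. Each change below is the log2 of HCHF over LCLF from this fit ± SE (n = 84 animals). The SE was worked back from the test, as the absolute change over the square root of its F statistic. The share of rises and falls depended on the scaling. When libraries were scaled on genes enriched in liver alone, called the liver-enriched scale below, the median of all genes shifted up by 0.15, and 7483 rose (50.2%) while 505 fell (3.38%). With no animal block 2697 rose and 2236 fell.

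Few falls were shared by nearly all animals. Of the genes that rose, 175 were higher in at least 76 of the 84 animals, with 82 animals the most for any gene. Of those that fell, 2 reached 76 animals and the most was 77. A gene that rose was higher in a median of 61 animals, and one that fell was lower in a median of 56.

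Genes typical of liver fell as a class, and genes lower in liver than in adipose tissue supplied most rises. Classes were set from LCLF libraries outside the pairs, 11 livers against muscle and adipose tissue. Of 777 liver-enriched genes (at least 3 on the log2 scale above both other tissues), 408 fell and 35 rose, with a median of -0.15. The liver-low class held genes at least 1 on the log2 scale below adipose tissue, with each tissue scaled separately. It took in 8468 of the 14919 genes tested, so many of its members are not scarce in liver. Of these 8468 genes, 2994 rose and 1023 fell, with a median of 0.04. Of 2146 genes at a shared level (within 1 of both tissues), 1075 fell and 50 rose, with a median of -0.10. The remaining 3528 genes had 1536 falls and 245 rises. On the liver-enriched scale 133 liver-enriched genes fell and 116 rose while 5875 of the liver-low genes rose and 48 fell. That scale is computed from the liver-enriched genes, which centres them near 0 by construction (median -0.01). The near balance of their falls and rises there was thus largely set in advance. Counts on this scale for lists made up of such genes are bound in the same way. Liver-enriched genes took a median of 54.0% of counts in LCLF and 52.2% in HCHF libraries, and liver-low genes took 15.7% and 17.2%.

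**Figure D1:**
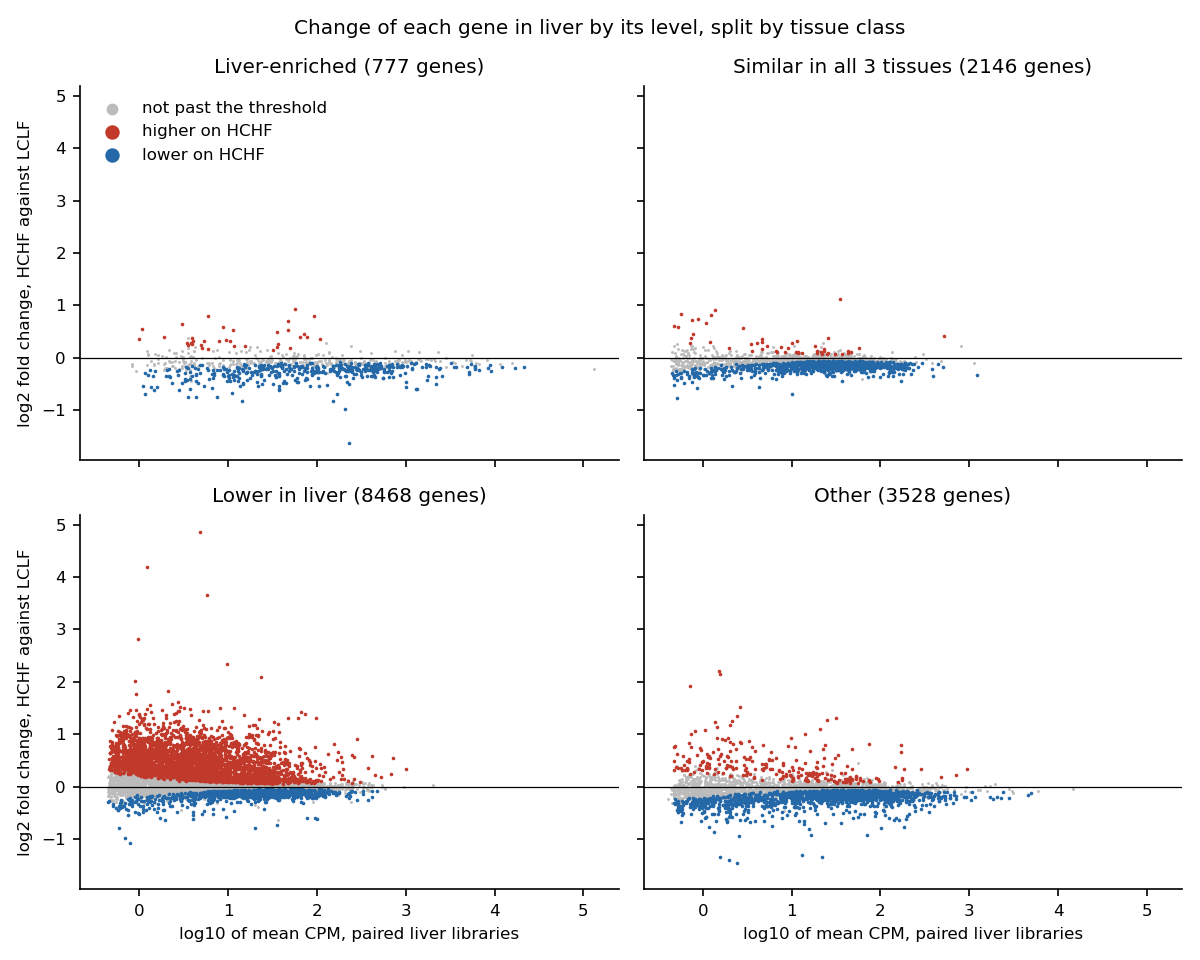
Change after 2 years of HCHF (log2 fold change of HCHF over LCLF, vertical axis) against mean level (log10 of mean CPM, horizontal axis) for the genes tested, in 4 panels by tissue class; coloured points are genes called higher or lower. Points above 0.5 are mostly in the liver-low panel, which held 1205 of the 1297 genes that rose by at least 0.5, while the liver-enriched panel held 31 of the 122 that fell by as much and 9 of those that rose.

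The same classes were followed animal by animal. The median change of liver-enriched genes within an animal ranged from -1.47, in animal 12152, to 0.24, and it was below 0 in 69 of 84 animals. This held for all 13 animals of the smaller library batch and for 56 of 71 in the larger. The median of liver-low genes was above 0 in 76 animals.

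**Figure D2:**
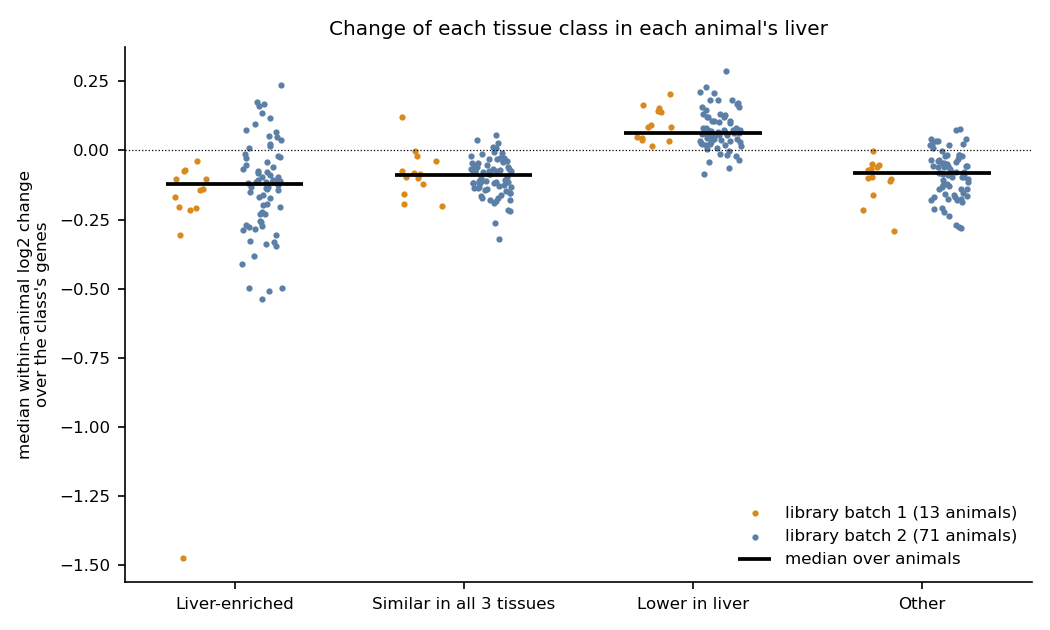
Median within-animal change (log2 CPM, HCHF minus LCLF, vertical axis) of the genes of each tissue class, 1 point an animal, split by library batch; bars are medians over animals. Animals spread around 0 in each class, with liver-enriched genes below 0 in 69 of 84 animals and liver-low genes above 0 in 76.

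The largest rise was that of UCHL1, a ubiquitin hydrolase best known from neurons. It lay between 0 and 8.13 CPM in LCLF libraries (median 0.209) and between 0.0559 and 28.2 CPM on HCHF (median 8.81). Its change was 4.86 ± 0.21 (edgeR quasi-likelihood, Benjamini-Hochberg adjusted p = 4.83e-35), and it was higher in 81 of 84 animals. The groups overlapped, yet 48 HCHF libraries lay above the highest LCLF library, and without animal 14833, which gave that highest value, 69 lay above the next at 2.38 CPM. SNCG, gamma-synuclein, had 0.167 to 2.90 CPM on LCLF (median 0.822) and 0.908 to 8.43 CPM on HCHF (median 2.87). It rose by 1.82 ± 0.11 (adjusted p = 4.43e-25), and all 84 HCHF libraries lay above the LCLF median.

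CHIT1, the chitinase of lipid-loaded macrophages, had 0 to 15.4 CPM on LCLF (median 0.415) and 0.194 to 96.7 CPM on HCHF (median 6.38), with 27 libraries above the next highest LCLF value, 9.75 CPM, when animal 14833 was left out. GPNMB, a transmembrane glycoprotein of lysosome-rich cells, had 1.61 to 54.4 CPM on LCLF (median 6.88) and 4.51 to 142.1 CPM on HCHF (median 31.6). Its 54.4 CPM was from animal 14833, and the next highest LCLF library had 34.6 CPM. GPNMB rose by 2.08 ± 0.13 and CHIT1 by 3.66 ± 0.23, in 82 animals each. FABP4, a carrier of fatty acids in adipocytes, macrophages and endothelium, had 0 to 14.3 CPM on LCLF (median 0.736) and 0.488 to 677.1 CPM on HCHF (median 5.03). The 677.1 CPM came from animal 16017, whose HCHF library also had the highest adipocyte marker share of the kept liver libraries, 0.135%. FABP4 rose by 2.33 ± 0.20, or by 2.32 without the 7 animals set aside, with 0.56 in batch 1, where it was not called, and 3.27 in batch 2. The part of adipocytes in it was not tested.

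**Figure D3:**
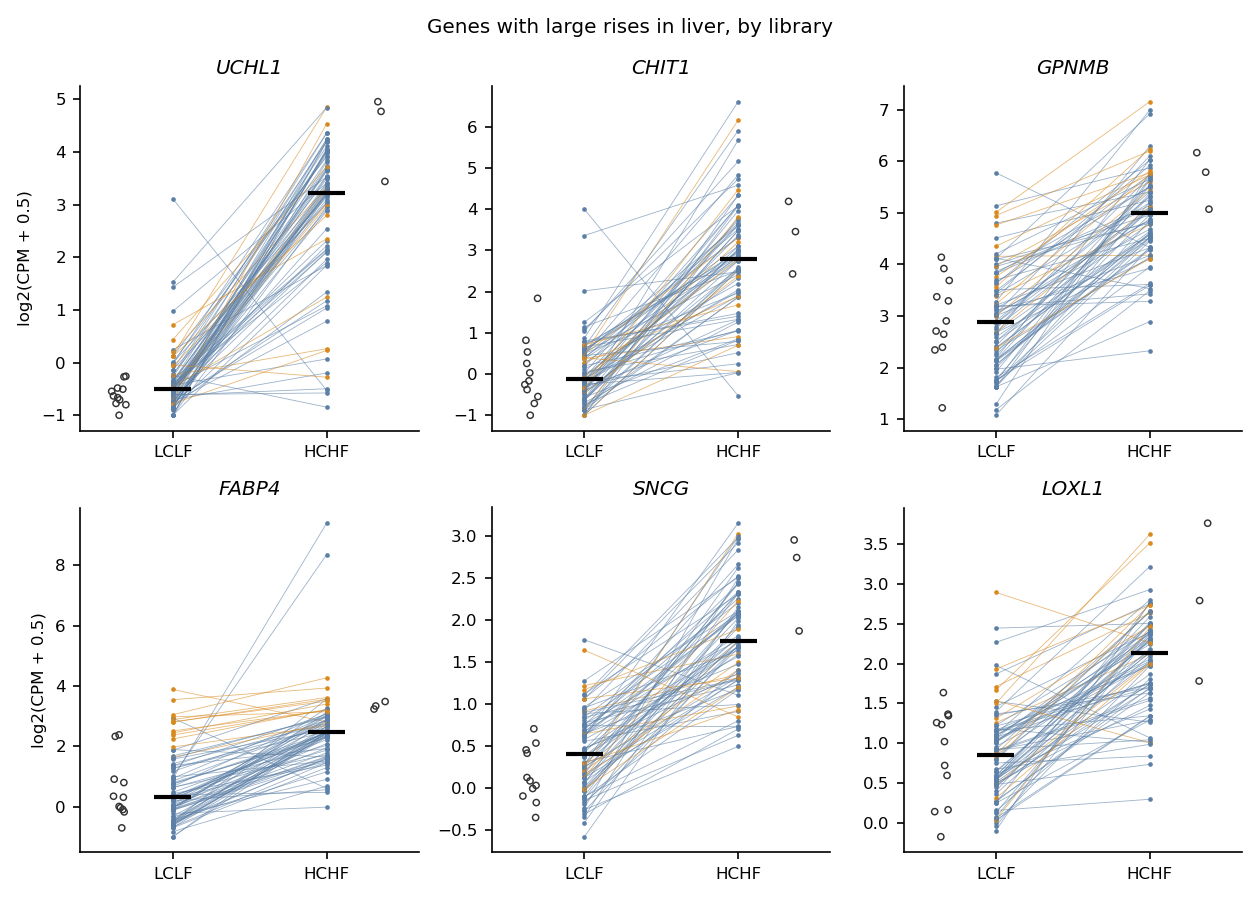
Level of 6 genes that rose (log2 of CPM plus 0.5, vertical axis) in each liver library by diet; lines join the 2 libraries of an animal (orange batch 1, blue batch 2), open circles are libraries of animals outside the pairs and black bars are medians of the paired libraries. UCHL1 moves from a median of 0.209 to 8.81 CPM, and most lines rise in each panel, with those of animal 14833 falling.

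The other large rises outside the cholesterol and macrophage marker lists were mostly receptors and secreted proteins at a few CPM. The macrophage marker list had only 12 genes tested, of which 11 rose (median 1.29). Other genes of macrophages and granulocytes were not left out. They included the chemokine receptor CCR1 (1.57 ± 0.12), the complement receptors C5AR1 (1.51 ± 0.12) and C3AR1 (1.39 ± 0.11), and the Toll-like receptor homologue CD180 (1.40 ± 0.11). The granulocyte genes S100A9 (1.50 ± 0.14) and CSF3R (1.49 ± 0.13), the galectin LGALS3 (1.50 ± 0.11) and lysozyme, LYZ (1.43 ± 0.11), rose by similar amounts. Members of a different kind were the potassium channel KCNJ10 (1.51 ± 0.14, median 1.03 CPM in LCLF and 3.29 in HCHF) and LOXL1, which crosslinks elastin. LOXL1 had 0.438 to 6.91 CPM on LCLF (median 1.31) and 0.733 to 11.7 CPM on HCHF (median 3.87), overlapping widely, and rose by 1.44 ± 0.10 in 79 animals. Of genes with LOC names, the 4 largest rises included LOC101006760, which lies between DYNLT3 and XK in the Panubis1.0 annotation (1.44 ± 0.10), and LOC101015647, between the macrophage genes MS4A6A and MS4A4A (1.17 ± 0.10). The others were LOC103876540, between TNS1 and RUFY4 (1.35 ± 0.12), and LOC116269732, between INPPL1 and FOLR1 (1.25 ± 0.12). Genes with LOC names were not checked against the cholesterol and macrophage lists.

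The largest fall among the named genes was that of SDS. This serine dehydratase, which turns serine into pyruvate, had 3.69 to 1338 CPM on LCLF (median 215.7) and 1.66 to 4557 CPM on HCHF (median 76.7). It fell by 1.63 ± 0.23 (edgeR quasi-likelihood, Benjamini-Hochberg adjusted p = 7.82e-09) and was lower in all but 18 animals. The groups overlapped over almost the whole range, and the highest HCHF value came from animal 12152, the next being 882.1 CPM. SLC1A2, a glutamate transporter known in rodents from hepatocytes near the central vein, had 23.5 to 605.4 CPM on LCLF (median 161.6) and 5.94 to 920.3 CPM on HCHF (median 92.1), and fell by 0.82 ± 0.12. ARG2, the mitochondrial arginase, went from a median of 7.20 to 2.81 CPM (-1.35 ± 0.25), though with no animal block its value was 0.10 and did not pass. Its level in animal 12152 was 1267 CPM after HCHF, the next highest being 158.8, and with no block and without the 7 animals set aside ARG2 fell by 1.33.

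The remaining named falls covered several functions. PRODH, which starts proline breakdown (-0.69 ± 0.10), STS, the steroid sulfatase (-0.70 ± 0.08, lower in 72 animals), BCO1, which cleaves carotene (-0.64 ± 0.12), P4HA1, a prolyl hydroxylase of collagen (-0.74 ± 0.14), and SLCO2A1, a prostaglandin transporter (-0.79 ± 0.14), were among them. SLCO2A1 did not pass with no animal block (-0.52). So were DUPD1, a phosphatase (-0.92 ± 0.16), PKD1L2, a polycystin relative (-0.67 ± 0.11), the cytolinker EPPK1 (-0.68 ± 0.10), the collagen COL27A1 (-0.63 ± 0.14), the unconventional myosin MYO15A (-0.66 ± 0.14) and TMEM169, a membrane protein (-0.64 ± 0.12). ATP2A1, the calcium pump of fast muscle, fell by 0.72 ± 0.22, with a value of -0.01 in batch 1, from at most 679.3 CPM in LCLF to at most 94.1 in HCHF libraries. Myocyte markers reached 0.509% of counts in LCLF and 0.242% in HCHF libraries, and their part in the value of ATP2A1 was not tested. LOC108584854, a long noncoding RNA gene between FTCD and SPATC1L, fell by 1.45 ± 0.16 from a median of 1.65 to 0.533 CPM. LOC101018881, a protein-coding gene between AKAP9 and LRRD1, had 27.1 to 285.5 CPM on LCLF (median 84.2) and 9.04 to 213.5 CPM on HCHF (median 40.7), and fell by 0.92 ± 0.09 in 72 animals. LOC101004221, between UBXN2B and SDCBP (-0.98 ± 0.16), and LOC101002093, between ERCC5 and SLC10A2 (-0.94 ± 0.11), fell by like amounts. These LOC genes were not checked against the cholesterol and macrophage lists either.

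**Figure D4:**
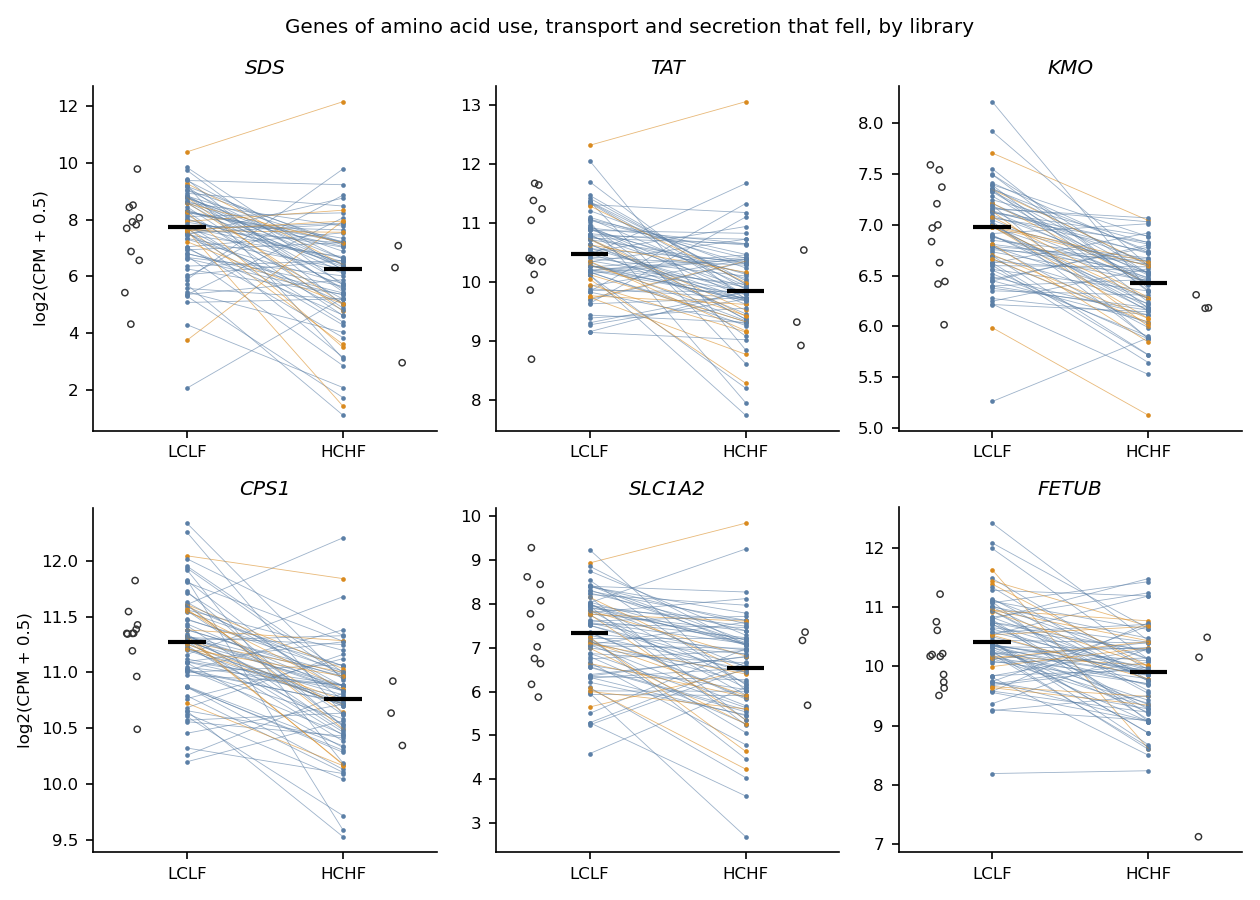
Level of 6 genes that fell (log2 of CPM plus 0.5, vertical axis) in each liver library by diet, with lines, colours, open circles and bars as in the plot of genes that rose. The medians of SDS go from 215.7 to 76.7 CPM and those of KMO from 125.7 to 85.5 CPM, while the ranges of the diets overlap in each panel.

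The gene lists described next cover metabolism, transport, secretion, signalling, transcription and cell machinery. Of 70 lists with at least 8 members tested, markers aside, 21 had at least 50% of their members lower and 11 at least 50% higher. On the liver-enriched scale 1 had as many lower and 29 as many higher, and with no animal block 9 and 10. With no block the falls numbered 19 for complex I, 27 for mitochondrial ribosomal proteins, 12 for the secretory pathway, 9 for folding in the endoplasmic reticulum, 7 for conjugation enzymes, 7 for proteasome subunits, 5 for gluconeogenesis and 4 for glycogen. They numbered 2 for hepatocyte complement, 3 for liver hormones and 3 for hepatocyte transcription factors. Amino acid transporters had 5 falls, nuclear receptors 5, insulin and mTOR genes 6, Wnt genes 4, antioxidant genes 6 and trace metal genes 3. Zinc finger genes had 38, cytosolic ribosomal proteins 2 and acute phase genes 0. Rises numbered 19 for zinc finger genes, 7 for Wnt genes, 1 for lipogenic and sugar-responsive factors and 4 for B and plasma cell markers. Each of these was lower than the count below by more than 1.5 times. Where a list below had no member called in 1 direction, edgeR also found none there at an unadjusted p under 0.05, except for 1 mitochondrial ribosomal protein and 1 TGF-beta gene, and neither limma-voom nor DESeq2 called one. With no animal block, however, edgeR called 2 acute phase genes higher. Where a list had 0 falls on the liver-enriched scale, it also had none at an unadjusted p under 0.05, except for 3 complex I subunits and 1 hepatocyte transcription factor.

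**Figure D5:**
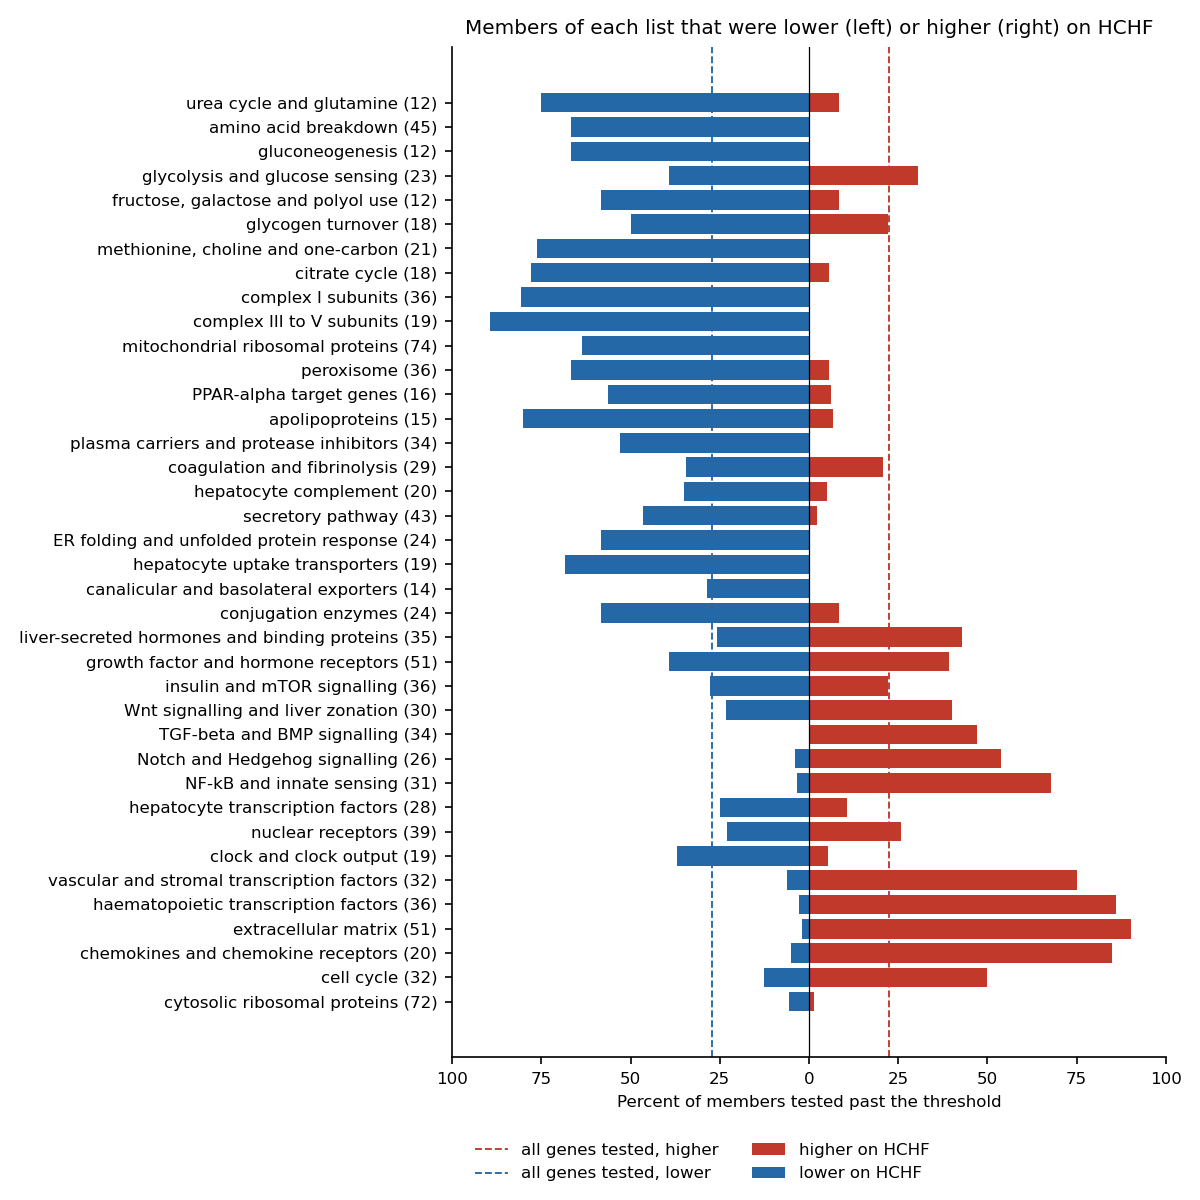
Share of members of the gene lists shown that fell (left, percent) and rose (right, percent) after HCHF. Dashed lines mark the shares over all genes tested, 27.1% and 22.3%. Metabolic, mitochondrial and secretory lists reach furthest to the left, and vascular, haematopoietic and matrix lists furthest to the right; on the liver-enriched scale 1 list, against 21 of 70 here, had at least 50% of its members lower.

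Genes of nitrogen metabolism fell. Of 45 enzymes of amino acid breakdown, 30 fell and 0 rose (median -0.18, or 14 and 5 on the liver-enriched scale). KMO, which hydroxylates kynurenine on the way from tryptophan to NAD, gave the most uniform fall. It had 37.9 to 295.3 CPM on LCLF (median 125.7) and 34.5 to 133.5 CPM on HCHF (median 85.5), so the highest level differed more than the lowest. Its change was -0.54 ± 0.05 (edgeR quasi-likelihood, Benjamini-Hochberg adjusted p = 3.40e-17), and it was lower in 77 animals, the most for any fall. TAT, the tyrosine aminotransferase induced by glucocorticoid, had 562.9 to 5072 CPM on LCLF (median 1407) and 212.5 to 8469 CPM on HCHF (median 912.3), with the 8469 from animal 12152, and fell by 0.60 ± 0.10. Lysine breakdown by AASS (-0.52 ± 0.09) and the serine dehydratase relative SDSL (-0.52 ± 0.07) fell too, AASS not passing with no block.

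The urea cycle, which disposes of ammonia, showed 9 falls and 1 rise in 12 genes (median -0.26, or 6 and 2 on the liver-enriched scale). CPS1, the enzyme that starts the cycle and one of the most abundant of liver, had 1176 to 5175 CPM on LCLF (median 2479) and 738.1 to 4726 CPM on HCHF (median 1741). It fell by 0.51 ± 0.06 (adjusted p = 9.64e-13) in 72 animals, although the ranges overlapped nearly throughout. The ornithine carrier SLC25A15 (-0.54 ± 0.07), ASS1 (-0.46 ± 0.07), ARG1 (-0.36 ± 0.06), ASL (-0.27 ± 0.06) and the glutaminase GLS2 (-0.36 ± 0.06) fell with it. The member that rose was GLUL, glutamine synthetase, the pericentral route of ammonia removal, from a median of 406.9 to 448.4 CPM (0.22 ± 0.06), which did not pass with no block. On the liver-enriched scale ASL was not called.

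Other amino acid routes moved in both directions. PSAT1 (-0.50 ± 0.06) and PHGDH (-0.31 ± 0.07), which make serine, fell, as did CSAD, of taurine synthesis (-0.33 ± 0.06), and CTH, which makes cysteine (-0.27 ± 0.07) and was not called on the liver-enriched scale. Of 21 genes of methionine, choline and one-carbon metabolism, 16 fell and 0 rose (median -0.17), but 1 fell on the liver-enriched scale. Of 28 amino acid transporters 12 rose and 8 fell, or 13 and 2 on the liver-enriched scale. Their share of falls was near the 27.1% over all genes tested. The cationic carrier SLC7A2 (-0.42 ± 0.07) and SLC38A4 (-0.25 ± 0.06) were among those that fell, SLC38A4 without a call on the liver-enriched scale. SLC7A8 (1.01 ± 0.09) and SLC43A2 (0.97 ± 0.07), carriers of large neutral amino acids at 5.85 and 3.17 CPM in LCLF libraries, rose.

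Genes of glucose production fell, while hexokinases known from other cell types rose. Of 12 gluconeogenesis genes 8 fell and 0 rose (median -0.26), or 5 and 2 on the liver-enriched scale. PCK1, the committed step from oxaloacetate, had 278.2 to 7848 CPM on LCLF (median 3088) and 603.7 to 5341 CPM on HCHF (median 2175), and fell by 0.34 ± 0.09. PPARGC1A, the fasting coactivator, had 14.7 to 106.6 CPM on LCLF (median 29.9) and 7.46 to 116.8 CPM on HCHF (median 21.1), and fell by 0.53 ± 0.07 in 66 animals. The transaminases GOT1 (-0.62 ± 0.10) and GPT2 (-0.44 ± 0.06) and glucose-6-phosphatase, G6PC (-0.34 ± 0.12), fell as well. GOT1 was at 11380 CPM in the HCHF library of animal 12152 and at most 611.8 in the others. With no animal block its value was 0.53, and without the 7 animals set aside as well it was -0.65. G6PC did not pass with no block or on the liver-enriched scale.

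Of 23 genes of glycolysis and glucose sensing 9 fell and 7 rose, or 4 and 10 on the liver-enriched scale. The members that rose included PFKP (0.97 ± 0.08), HK2 (0.91 ± 0.10), HK1 (0.67 ± 0.06) and PKM (0.64 ± 0.08), isoforms that hepatocytes use little. Glycogen genes had 9 falls and 4 rises of 18, or 0 and 9 on the liver-enriched scale. Their share of rises was near the 22.3% over all genes tested. PPP1R3C, which targets protein phosphatase to glycogen, had 24.3 to 298.2 CPM on LCLF (median 124.6) and 27.4 to 433.7 CPM on HCHF (median 210.8), and rose by 0.65 ± 0.08 in 68 animals. Of 12 genes of fructose, galactose and polyol use 7 fell and 1 rose (2 of each on the liver-enriched scale), among them TKFC, a triokinase (-0.33 ± 0.07). The member that rose was AKR1B1, aldose reductase, which makes sorbitol (0.84 ± 0.06), with all 84 HCHF libraries above the LCLF median of 5.84 CPM.

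Mitochondrial and peroxisomal genes fell by small amounts. Of 36 complex I subunits 29 fell and 0 rose (median -0.14), of 19 subunits of complexes III to V 17 fell and 0 rose (median -0.18), and of 74 mitochondrial ribosomal proteins 47 fell and 0 rose (median -0.10). These counts rested on the scaling. On the liver-enriched scale complex I had 0 falls and 1 rise, complexes III to V 1 of each, and mitochondrial ribosomal proteins 0 falls and 17 rises. NDUFS8 of complex I (-0.26 ± 0.04) and ATP5MC1 of the ATP synthase (-0.27 ± 0.05) were among the larger falls, and neither passed with that scaling. Cytosolic ribosomal proteins had 4 falls and 1 rise of 72, or 0 and 36 on the liver-enriched scale. In the citrate cycle 14 of 18 genes fell and 1 rose (3 and 2 on the liver-enriched scale), with fumarase, FH (-0.27 ± 0.04), and malate dehydrogenase, MDH2 (-0.27 ± 0.05). CS, citrate synthase, was the member that rose (0.13 ± 0.03).

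Fat use by PPAR-alpha, the fasting receptor of liver, was represented by 16 target genes, of which 9 fell and 1 rose (3 and 2 on the liver-enriched scale). ACAA1, a thiolase of peroxisomes, fell by 0.38 ± 0.08. FGF21, a liver hormone of metabolic stress, was the member that rose. It had 0 to 22.5 CPM on LCLF (median 1.67) and 0.0448 to 20.8 CPM on HCHF (median 2.61), overlapping fully, and rose by 0.65 ± 0.19 in 52 of 84 animals. Of 36 peroxisome genes 24 fell and 2 rose (5 and 8 on the liver-enriched scale), with HACL1, of alpha-oxidation, at -0.38 ± 0.05 and FAR1, of plasmalogen synthesis, at 0.50 ± 0.07. Of 14 lipogenic and sugar-responsive factors 6 fell and 5 rose (2 and 7 on the liver-enriched scale). SREBF1 rose by 0.62 ± 0.13, with no call in the absence of the block, while INSIG1, which holds SREBP factors in the endoplasmic reticulum (-0.57 ± 0.12), and MLXIPL, the sugar-responsive factor ChREBP (-0.20 ± 0.05), fell. MLXIPL did not pass on the liver-enriched scale.

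Genes of secreted plasma proteins fell. Of 34 plasma carriers and protease inhibitors 18 fell and 0 rose (median -0.15, or 5 and 2 on the liver-enriched scale). FETUB, a fetuin that inhibits metalloproteases, had 291.3 to 5475 CPM on LCLF (median 1356) and 301 to 2861 CPM on HCHF (median 962.8). It fell by 0.59 ± 0.09 (edgeR quasi-likelihood, Benjamini-Hochberg adjusted p = 9.40e-09) in 64 animals, with the highest level again further apart than the lowest. HRG, histidine-rich glycoprotein (-0.32 ± 0.06), and RBP4, the carrier of retinol (-0.25 ± 0.05), fell as well. Of 15 apolipoproteins 12 fell and 1 rose (3 and 2 on the liver-enriched scale), with APOC3 (-0.37 ± 0.06) and APOA5 (-0.36 ± 0.08), which act in opposite directions on triglyceride clearance. APOD, an apolipoprotein of many tissues, rose from a median of 3.34 to 5.34 CPM (0.70 ± 0.12).

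Of 29 coagulation and fibrinolysis genes 10 fell and 6 rose (2 and 12 on the liver-enriched scale), the share of rises near the 22.3% over all genes tested. Factor VII, F7, was at -0.28 ± 0.04 and urokinase, PLAU, which is not a hepatocyte product, at 1.14 ± 0.12. Complement genes of hepatocytes had 7 falls, among them the lectin MBL2 (-0.26 ± 0.05), and 1 rise of 20, or 1 and 8 on the liver-enriched scale. The rise was C7, of the membrane attack complex, from a median of 136.6 to 182.2 CPM (0.57 ± 0.07, higher in 68 animals). Of 14 acute phase genes 4 fell and 0 rose (0 and 1 on the liver-enriched scale), also near the 27.1% of falls over all genes tested. With no animal block 0 of them fell and 2 rose. The export machinery fell slightly, with 20 falls and 1 rise in 43 genes of the secretory pathway and 14 falls and 0 rises in 24 genes of folding in the endoplasmic reticulum. SEC23A, of COPII coats (-0.21 ± 0.05), CALR, a chaperone (-0.21 ± 0.06), and DNAJB9, a co-chaperone of BiP (-0.26 ± 0.07), fell, and TANGO2 was the member that rose (0.16 ± 0.03). On the liver-enriched scale none of these 3 falls passed, and the lists had 0 falls with 13 and 3 rises.

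Most uptake transporters and conjugation enzymes tested fell. Of 19 uptake transporters of hepatocytes 13 fell and 0 rose (median -0.15), or 3 and 0 on the liver-enriched scale. Without the 7 animals set aside 8 of the 19 fell, and with no animal block 6. SLC10A1, the sodium-dependent bile acid importer, had 290.6 to 659.1 CPM on LCLF (median 459.3) and 6.51 to 573.1 CPM on HCHF (median 403.2), and fell by 0.26 ± 0.06 in 70 animals. The urate carrier SLC2A9 fell by 0.33 ± 0.06. Of 14 exporters 4 fell and 0 rose (2 and 6 on the liver-enriched scale), a share of falls near the 27.1% over all genes tested, with the basolateral ABCC3 at -0.38 ± 0.05. Of 24 conjugation enzymes 14 fell and 2 rose (2 and 3 on the liver-enriched scale), 1 of the rises being GSTP1, a glutathione transferase that hepatocytes lack or hold at low level (0.84 ± 0.08). SRD5A2, a steroid 5-alpha reductase, fell by 0.47 ± 0.09. HMOX1, haem oxygenase, which macrophages use on red cell haem, rose from a median of 17.6 to 40.1 CPM (1.13 ± 0.09), and the iron exporter SLC40A1 rose by 0.33 ± 0.06. Of 25 antioxidant genes, HMOX1 among them, 10 fell and 6 rose (0 and 9 on the liver-enriched scale). Their share of rises was near the 22.3% over all genes tested. Of 18 genes of metallothioneins and trace metals, SLC40A1 among them, 6 fell and 2 rose (2 and 6 on the liver-enriched scale). Of 29 cytochromes P450 of drug metabolism listed, 1 was in the counts under its symbol and was tested, too few to describe as a list. The rest had no entry under the symbols used, so their levels were not read.

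Liver hormones and their binding proteins changed in both directions. Of 35 genes 15 rose and 9 fell, or 16 and 4 on the liver-enriched scale. The share of falls was near the 27.1% over all genes tested. IGF1, the growth hormone-dependent growth factor of hepatocytes, had 74.3 to 860.5 CPM on LCLF (median 340.8) and 27.8 to 560.5 CPM on HCHF (median 273.6), and fell by 0.36 ± 0.08 in 60 animals. The 27.8 CPM was from animal 12152, and the lowest other HCHF library had 78.7 CPM. IGF2 fell by 0.49 ± 0.13, which did not pass with no block, and IGFBP1 by 0.55 ± 0.16. With no block IGFBP1 was at 0.43, and without the 7 animals set aside as well it was at -0.48. BMP6, the endothelial signal for hepcidin, rose from a median of 1.32 to 2.41 CPM (0.92 ± 0.09), and GDF2 (BMP9), a product of stellate cells, from 30.3 to 41.8 CPM (0.49 ± 0.07). The hepcidin gene itself, HAMP, which is outside the 175 genes counted as named, fell. Its fall was not called on the liver-enriched scale or with no block. CCN2, connective tissue growth factor, rose by 0.51 ± 0.09.

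Growth factor and hormone receptors changed in both directions. Of 51 tested 20 rose and 20 fell (median 0.01), or 27 and 5 on the liver-enriched scale. Those that fell included IL6R, for interleukin-6 (-0.39 ± 0.06), EGFR (-0.28 ± 0.04), FGFR4, for FGF19 (-0.29 ± 0.04), and the leptin receptor, LEPR (-0.48 ± 0.10). IL6R had 135.3 to 499.9 CPM on LCLF (median 270.1) and 130.6 to 577.5 CPM on HCHF (median 203.5), and it was lower in 64 animals. LEPR reached 1107 CPM in animal 12152 after HCHF and at most 195.2 in the other HCHF libraries. With no block its value was 0.00, and -0.44 without the 7 animals set aside as well, among them animal 12152, whose part alone was not tested. The endothelial receptor KDR rose from a median of 19.2 to 30.5 CPM (0.69 ± 0.07), and IL10RA, a leukocyte receptor for interleukin-10, rose by 1.12 ± 0.08 in 81 animals.

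Rises prevailed in several signalling lists. Of 34 genes of TGF-beta and BMP signalling 16 rose and 0 fell (median 0.15). TGFB1, the main profibrotic cytokine of liver, had 3.30 to 21.2 CPM on LCLF (median 6.56) and 5.15 to 29.1 CPM on HCHF (median 13.5), and rose by 0.92 ± 0.07 (edgeR quasi-likelihood, Benjamini-Hochberg adjusted p = 5.41e-21) in 79 animals. ACVRL1, the endothelial receptor for BMP9, rose by 0.77 ± 0.06. Of 31 genes of NF-kB and innate sensing 21 rose and 1 fell (median 0.28), and of 26 Notch and Hedgehog genes 14 rose and 1 fell, with the endothelial ligand DLL4 at 0.82 ± 0.08.

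Insulin, Wnt and cytokine pathways had calls in both directions. Of 36 insulin and mTOR genes 8 rose and 10 fell (18 and 0 on the liver-enriched scale), shares near the 22.3% and 27.1% over all genes tested, the largest change being in PIK3R5, a leukocyte subunit of PI3-kinase (0.82 ± 0.07). Of 30 Wnt and zonation genes 12 rose and 7 fell (18 and 3 on the liver-enriched scale), the share of falls again near the 27.1%. The secreted modulators SFRP4 (1.21 ± 0.11) and RSPO3, the endothelial signal that keeps the pericentral zone (0.46 ± 0.06, from a median of 7.01 to 9.08 CPM), rose, while the receptors FZD5 (-0.30 ± 0.05) and LRP5 (-0.27 ± 0.04) fell. Of 22 JAK-STAT genes 10 rose and 8 fell (13 and 2 on the liver-enriched scale), with the feedback inhibitor SOCS3 at 0.57 ± 0.14 and STAT2, of interferon signalling, at -0.31 ± 0.05.

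Transcription factors of hepatocytes changed little. Of 28 of them 7 fell and 3 rose (median -0.04), or 0 and 11 on the liver-enriched scale. The share of falls was near the 27.1% over all genes tested, and that of rises was under the 22.3%. HNF4A, the central factor of hepatocyte identity, had 256.6 to 666.9 CPM on LCLF (median 382.5) and 235.8 to 518.3 CPM on HCHF (median 364.9). It fell by 0.10 ± 0.03 (edgeR quasi-likelihood, Benjamini-Hochberg adjusted p = 0.00722), and its value turned to 0.05 on the liver-enriched scale. ATF5 (-0.36 ± 0.10), a factor of mitochondrial stress, and PROX1 (-0.20 ± 0.06), of hepatocyte development, fell but did not pass with that scaling, nor did ATF5 with no block. KLF11 rose by 0.39 ± 0.09. Of 39 nuclear receptors 10 rose and 9 fell (19 and 1 on the liver-enriched scale), shares near the 22.3% and 27.1% over all genes tested. Among them were the xenobiotic receptor NR1I3 (CAR) at -0.15 ± 0.04 and NR4A2 at -0.39 ± 0.10. The adipogenic receptor PPARG was at 0.25 ± 0.08 and the thyroid hormone receptor THRA at 0.25 ± 0.04. NR1I3 did not pass on the liver-enriched scale, nor NR4A2 with no block.

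The clock list had 7 falls and 1 rise in 19 genes, or 2 and 6 on the liver-enriched scale. The period gene PER2 had 17.2 to 75.4 CPM on LCLF (median 33.4) and 14 to 55.9 CPM on HCHF (median 25.9), and fell by 0.35 ± 0.05. PER1 fell by 0.34 ± 0.07. BHLHE41, a repressor of the clock at under 1 CPM, rose by 0.58 ± 0.12. The labels used here do not give the hour of each biopsy. The corepressor CTBP1 fell by 0.27 ± 0.04. Among 324 zinc finger genes with ZNF symbols, 79 fell and 40 rose, or 3 and 155 on the liver-enriched scale. Their share of falls was near the 27.1% over all genes tested, and that of rises was under the 22.3%. The largest fall was that of ZNF552 (-0.53 ± 0.08).

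Factors of other cell types rose. Of 36 haematopoietic transcription factors 31 rose and 1 fell (median 0.59). SPI1 (PU.1), the master factor of myeloid cells, had 0.957 to 11.1 CPM on LCLF (median 3.17) and 2.49 to 18.8 CPM on HCHF (median 7.08), and rose by 1.11 ± 0.08 in 80 animals. IRF8, of monocytes and dendritic cells, rose by 1.07 ± 0.10. Of 32 vascular and stromal factors 24 rose and 2 fell (median 0.30), with MEF2C (0.58 ± 0.06) and BCL6B (0.67 ± 0.08). FOXP1 was 1 of the members that fell (-0.24 ± 0.05), without a call on the liver-enriched scale.

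Matrix and cell type markers rose beside these groups. Of 51 extracellular matrix genes 46 rose and 1 fell (median 0.47), with the basement membrane collagen COL4A1 at 0.66 ± 0.08, the fibrillar COL1A1 at 0.66 ± 0.14 and lumican, LUM, at 0.81 ± 0.13. FN1, fibronectin, which hepatocytes secrete into plasma, was the member that fell (-0.16 ± 0.06), with no call on the liver-enriched scale or with no block. Of 16 endothelial markers all rose (median 0.71), among them PECAM1, an adhesion molecule. It had 13 to 58.1 CPM on LCLF (median 26.8) and 26.1 to 94.4 CPM on HCHF (median 47), and rose by 0.85 ± 0.06 in 81 animals. The sinusoidal receptor LYVE1 (1.00 ± 0.08) and the junction gene CDH5 (0.95 ± 0.07) rose with it. Of 14 stellate cell and fibroblast markers 13 rose (median 0.39), with decorin, DCN, at 0.66 ± 0.07.

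All 12 lymphocyte markers (T and NK cells) rose (median 0.80), with CD4 at 1.29 ± 0.10 and CD3E at 0.81 ± 0.08. All 4 neutrophil markers tested (median 1.49), with S100A8 at 1.56 ± 0.16, 11 of 12 macrophage markers (median 1.29) and 7 of 10 markers of B and plasma cells (median 0.38) rose too, including JCHAIN (0.55 ± 0.09, not called with no block). Of 8 bile duct markers 1 rose and 0 fell. Of 11 hepatocyte markers 6 fell and 0 rose (median -0.19), or 2 and 1 on the liver-enriched scale. HBB, beta globin, a sign of blood in a biopsy, rose by 1.30 ± 0.19, with its highest value at 371 CPM in LCLF and 1647 CPM on HCHF. The part of these cell types in the changes of the other lists was not tested.

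Among called members, rises outnumbered falls in the antigen presentation, chemokine, lysosome and cell cycle lists. Falls outnumbered rises among proteasome subunits, but not on the liver-enriched scale. Of 17 antigen presentation genes 13 rose and 1 fell, with the invariant chain CD74 going from a median of 169.4 to 338.5 CPM (0.90 ± 0.08). Of 36 proteasome subunits 14 fell and 3 rose (0 and 17 on the liver-enriched scale), and those that rose were PSMB8 (0.37 ± 0.06), PSMB9 (0.72 ± 0.08) and PSMB10 (0.33 ± 0.06), the interferon-inducible subunits of the immunoproteasome. Of 20 chemokines and their receptors 17 rose and 1 fell (median 0.69). Of 45 lysosome and autophagy genes 20 rose and 6 fell, with LAPTM5, of leukocyte lysosomes (1.04 ± 0.08), the protease CTSD (0.41 ± 0.06, median 431.9 to 609.5 CPM), the acid lipase LIPA (0.46 ± 0.06) and the autophagy gene GABARAPL1 (-0.26 ± 0.04). Of 32 cell cycle genes 16 rose and 4 fell, with MKI67 at 0.81 ± 0.12 and TYMS at 0.67 ± 0.10 against BIRC5 at -0.40 ± 0.07 and PLK1 at -0.28 ± 0.05.

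The largest changes were also read in animals outside the pairs, 3 with an HCHF library alone and 11 with an LCLF library alone. UCHL1 was at 10.3, 26.7 and 30.5 CPM in the HCHF libraries and at most 0.335 CPM in the LCLF libraries, with no overlap. CHIT1 was at 4.88 to 17.7 CPM against at most 3.07 CPM, and FABP4, GPNMB and SNCG were likewise separate. An exact permutation test (two-sided, 364 splits) gave p = 0.00275 for each of these 5 genes, the smallest it can give, and an adjusted p = 0.0066 over 12 genes. For CCR1 the exact p was 0.00824 (adjusted p = 0.0165). In batch 2 alone (2 HCHF and 9 LCLF libraries) the 5 genes stood at the smallest p of 55 splits, 0.0182 by the exact test, and passed, while CCR1 did not pass once adjusted over the 12 genes (exact p = 0.0364). Batch 1 held 1 HCHF library, too few for a test. The 6 falls tested pointed down in these animals too, and none passed. The log2 difference of SDS was -1.97 (exact permutation p = 0.0934), with differences of -2.11 for ARG2 (exact p = 0.0604) and -0.64 for SLCO2A1 (exact p = 0.654).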

How the data were processed

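RNA-seq gene counts were measured in liver biopsies of 84 baboons at both diets. The deposited counts are whole numbers per gene made by the authors, per the submitters' processing notes with STAR 2.7.7a, featureCounts and FastQC. No source used here states a build, an annotation or a strand setting, so overlapping and antisense genes, near-identical paralogs and LOC genes are uncertain. Of 34178 identifiers 33824 matched RefSeq symbols (assembly Panubis1.0), which gave neighbours and biotypes only. In the table of libraries kept by quality control 193 columns were not used, and 575 of 588 in the full table, from which 13 left-out liver libraries were taken as an alternative.

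Counts were analysed in R 4.3.3 with edgeR 4.0.16 (TMM scaling, filterByExpr with a minimum count of 10, 1 common dispersion estimated on every 10th gene, glmQLFit and glmQLFTest, animal as a block, Benjamini-Hochberg at 0.05). CPM are counts scaled by the TMM-adjusted library size. Alternatives used limma 3.58.1, DESeq2 1.42.0, other scalings, filters and sets of libraries. Both libraries of an animal carry its number and, per the labels' protocols, shared extraction, library and sequencing batches. Over 84 pairs the deviations from the group means correlated at a median of 0.564, against 0.0116 between different animals, and all pairs were over 0.1. Per the labels' protocols batch 1 held 16 animals (unstranded, single-end reads) and batch 2 held 83 (stranded, paired-end reads). The labels do not say which, so animals were assigned by the first axis of the LCLF libraries of all tissues, which split 16 from 83, and this split is an inference. Batch 1 gave 13 pairs at a median of 11023542 counts, batch 2 gave 71 at 20871348, so batch 1 limits small changes. P-values of the fits blocked on animal measure how the within-animal change varied over these animals. Those of the fits with no block and of the permutation test measure the spread between libraries.

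Named genes followed a rule. First came the 15 largest changes each way among called genes outside cholesterol synthesis and macrophage markers, with 2 CPM or more on average. At least 70% of animals had to move in the called direction. The 4 largest each way with LOC names met the same cut-offs but were not checked against the excluded groups. Then came up to 6 members a list (mean of at least 1 CPM), by size, and members called against a list's majority. Members of lists were named in part. The genes, lists and tests were chosen with earlier results of these data known. On simulated counts (1500 genes, 200 changed) the test recovered 65% of changes of 0.2 and 100% of changes of 0.5 on the log2 scale, with 4.62% false calls. The simulation gave every gene the same dispersion. Animals were set aside in an alternative when hepatocyte markers were less than 1 in 4 of the median share, or when adipocyte, myocyte or mesothelium markers were over 10 times theirs and over 0.05% of counts.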

Additional observations from a re-analysis of the deposited data

Results flagged for a closer look

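The libraries that quality control had left out held a signal foreign to liver. Of 13 left-out liver libraries, 8 had a share of counts on myocyte markers above that of every kept liver library, up to 18.3% against at most 0.509%. Their hepatocyte marker shares lay between 0.000558% and 0.953%, while kept paired libraries had 5.09% or more. The count of genes that fell by at least 0.5 was 122 without these libraries and 269 with them.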

How the results depend on the processing

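The number of genes that fell depended on the scaling. On the liver-enriched scale 7483 genes rose and 505 fell, 1955 and 43 by at least 0.5, and 29 and 1 of 70 lists had at least 50% of their members higher and lower. With no replicate block (the pairing of an animal's libraries ignored) 2236 genes fell and 9 lists had most members lower, with the 7 animals in doubt also left out 2224 and 7 (chosen after seeing the data), and in DESeq2 with no block 2281 and 11. ARG2 (0.10), GOT1 (0.53), IGFBP1 (0.43) and LEPR (7e-04) turned upward with no replicate block in edgeR, HNF4A (0.0535) on the liver-enriched scale, and ARG2 (0.18) and ZNF552 (0.0573) in batch 1. Of 175 named genes, 15 were no longer called on the liver-enriched scale, 10 with no block and 19 with the left-out libraries, besides those that turned. In batch 1 alone (13 animals, limma-voom) 640 genes rose and 294 fell, 466 rose by at least 0.5, and 0 lists reached 50% either way, or 5 upward and 0 downward at an unadjusted p under 0.05. There 91 of 174 named genes were not called. With no filter (limma-voom) 9735 genes fell, 216 by at least 0.5. With the left-out libraries 269 fell by at least 0.5 and 5 lists had most members lower. Setting liver-enriched genes at 2 or 4 on the log2 scale in place of 3 gave 54 and 20 rises in that class. The causes of these shifts were not tested. RLE factors, a mean of at least 1 CPM, limma-voom with the block, and leaving out animal 14833 (chosen after seeing the data) or the animals in doubt changed no named call, and batch 2 alone lost FN1. On simulated counts with the same dispersion for every gene the test recovered 65% of changes of 0.2 on the log2 scale. No single limit of detection follows for the real genes, whose spread differs, and HNF4A was called at -0.10 ± 0.03.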

Other observations

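Liver-enriched genes seldom rose by much. Only 9 did so by at least 0.5 on the log2 scale, 4 of them with LOC names. The other 5 were chosen after their values were seen. OIT3 (0.92 ± 0.09), DNASE1L3 (0.71 ± 0.07), a secreted nuclease, and STAB2 (0.53 ± 0.07), a scavenger receptor for hyaluronan, are known from the sinusoidal endothelium. OIT3 went from a median of 34.9 to 68.3 CPM and was higher in 72 of 84 animals, DNASE1L3 from 34.5 to 57.4 CPM in 73 and STAB2 from 38.0 to 51.4 CPM in 66. FGF21, a hormone of hepatocytes (0.65 ± 0.19), and ELF3, an epithelial transcription factor (0.53 ± 0.14), were the remaining members, each higher in 52 or 53 animals.

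Some changes fell outside the gene rule and were also chosen after their values were seen. CFP, properdin, the positive regulator of the alternative complement pathway made by leukocytes, had 3.84 to 78.6 CPM on LCLF (median 15.1) and 9.77 to 127.8 CPM on HCHF (median 41.2), and rose by 1.30 ± 0.10 in 78 animals. ACSS2, which activates acetate, fell by 0.62 ± 0.08, and SLC19A3, a thiamine transporter, fell by 0.61 ± 0.08 in 71 animals, from a median of 41 to 27.2 CPM. ETNPPL, which breaks down phosphoethanolamine, fell by 0.52 ± 0.09.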
